A study of Mus musculus with 6 samples.

Results

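The 120 RNAs described here are fragments of nuclear tRNA-Ala (84) and tRNA-Pro (36) measured in a tau pull-down from mouse hippocampus. They were taken by name from the authors' list of 2380 small RNAs: names holding tRF or tiRNA, without the mitochondrial prefix, that end in an alanine or proline tRNA. They are 120 of 817 tRNA fragments in that list, and 646 others come from other nuclear tRNAs. By type there were 64 tRF5, 34 5′ tiRNAs, 16 tRF3 and 6 3′ tiRNAs. By anticodon 44 were AlaAGC, 17 AlaTGC, 15 AlaCGC, 8 AlaGGC, 18 ProAGG, 14 ProTGG and 4 ProGGG. The labels and files do not define the numbers in the names. Here the number after the type is taken as the length in bases and the last number as separating tRNAs of 1 anticodon. On that reading, 5′ fragments of 1 tRNA overlap each other, as do its 3′ fragments, and they are not independent measurements. The RefSeq gene table of assembly GRCm38.p6 holds 33 genes named for tRNA-Ala and 16 for tRNA-Pro, none of them with the anticodon GGC or GGG.

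The arrays compared PS19 mice, transgenic for human P301S tau, with wild-type (WT) mice, 3 hippocampal samples each. RNA was crosslinked to protein by ultraviolet light in homogenates of frozen tissue, and complexes were pulled down on magnetic beads with an antibody to tau pS396 (CLIP). RNA of the pull-down was labelled with Cy5 and RNA left in the supernatant with Cy3, and both were hybridised to the same 2-colour array. Dyes were not swapped, and no pull-down with a control antibody is analysed here, so a CLIP level is that of RNA recovered with the beads. The labels give no age, sex, number of animals per sample or promoter of the transgene. The p-values rest on the spread between these samples, which for the CLIP level was pooled over RNAs.

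Fragments of tRNAs arise when mature tRNAs are cut. Angiogenin cuts in the anticodon loop and leaves 5′ and 3′ tiRNAs, cuts near the D loop leave the shorter tRF5, and cuts near the T loop leave tRF3, which carry the CCA end of the tRNA. In human cells the 5′ tiRNA of tRNA-Ala, which starts with a run of guanines, is known to displace the cap-binding complex and to repress translation under stress. Full-length tRNA-Pro is also known as the primer for reverse transcription of murine leukaemia virus. A level in the pull-down alone does not separate RNA enriched with tau from RNA that is abundant in the tissue, so both channels and their ratio are given.

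The arrays differed in signal. In the CLIP channel 37.6% to 49.4% of the probes were well above background on the PS19 arrays, against 10.6% on WT 1, 44.2% on WT 2 and 24.7% on WT 3. By the file headers, 1 scan held PS19 1 together with WT 2 and another held PS19 2 together with PS19 3. The arrays WT 1 and WT 3 each had a scan of their own, at other voltages. Both genotypes can thus be compared inside 1 scan only, with 1 array of each. Of 8 neuronal microRNAs looked for, 5 were named, and 4 of these were well above background in CLIP on all PS19 arrays and 1 on all WT arrays, with 3 and 2 in the supernatant; their summed level ran from -2.23 to -1.58 in PS19 CLIP and from -2.58 to -2.03 in WT CLIP, on the log2 scale used below. Named markers of other cells were 1 of 3 for oligodendrocytes, 2 of 5 for choroid plexus and 1 of 3 for muscle. For microglia and blood leukocytes, endothelium, vascular smooth muscle and erythrocytes 0 were named. The named ones were well above background in CLIP on all PS19 arrays and not on all WT arrays. Summed CLIP levels were -4.66 to -3.83 in PS19 against -7.52 to -4.07 in WT for oligodendrocytes. For choroid plexus they were -3.69 to -3.51 against -5.74 to -3.68, and for muscle -3.96 to -3.20 against -5.46 to -3.30.

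Alanine and proline fragments were detected in most pull-downs, WT 1 and WT 3 apart. On the PS19 arrays 115, 106 and 113 of the 120 were well above background in CLIP, against 4 on WT 1, 111 on WT 2 and 62 on WT 3. As shares these were 95.8%, 88.3% and 94.2% in PS19 1 to 3, against 3.3%, 92.5% and 51.7% in WT 1 to 3. The 646 fragments of other nuclear tRNAs had 98.1%, 90.1% and 96.6% in PS19, against 11.3%, 95.8% and 47.8% in WT. In the supernatant the counts were 119, 93 and 103 on the PS19 arrays, against 113, 117 and 100 on the WT arrays. WT 1 was therefore low in CLIP and not in the supernatant. The 4 fragments above background there, counted whether or not a spot was also marked as an outlier, were the 5′ tiRNAs of 33, 34 and 35 bases from AlaAGC-1 and tRF5-22-AlaAGC-3. All 2380 names proved to be RNAs well above background in CLIP on at least 3 of the 6 arrays, so the list itself passed such a filter; another 950 tRNA fragment probes have no name and are not described here. Of the 120, 22 were well above background on exactly 3 arrays, each with at least 2 PS19 arrays among them, and 94 were on all 3 PS19 arrays and 2 on all 3 WT arrays. Of the 646 fragments of other nuclear tRNAs, 553 were on all 3 PS19 arrays and 62 on all 3 WT arrays. A single one of the 120, tRF5-18-AlaGGC-2, was not well above background in CLIP on any WT array. Its CLIP level in PS19 was at least 2.18-fold that in WT (limma, adjusted p = 0.773). That bound is on the scaled levels described below, where the median RNA was 0.85 higher in PS19 in log2. Relative to the median RNA the bound was 0.27 in log2. This fragment entered the list only through the PS19 arrays, so the fold is a description and no support for a difference.

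**Figure D1:**
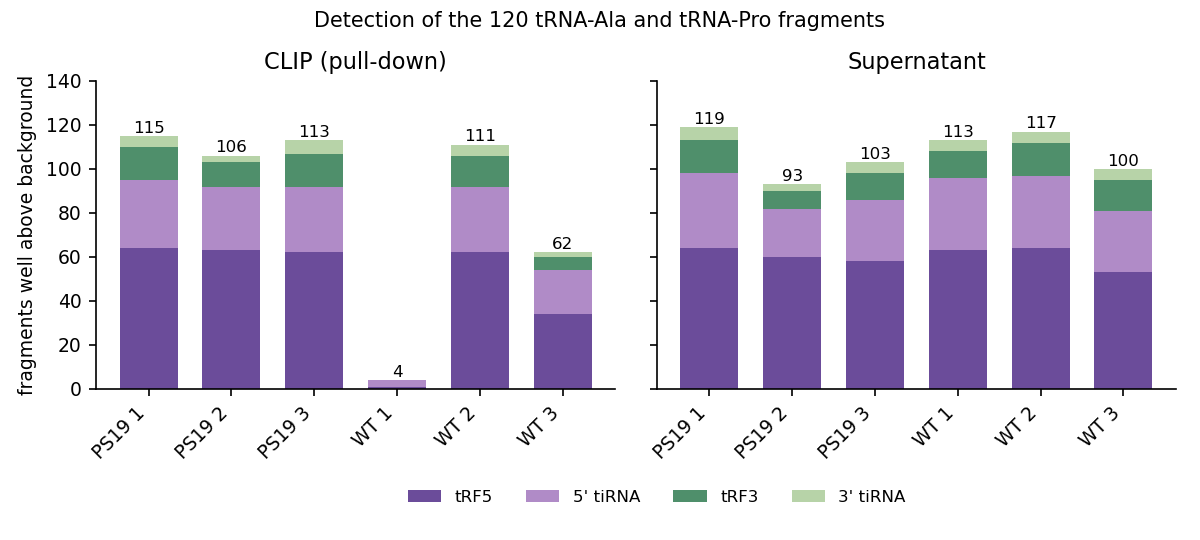
Bars count the alanine and proline tRNA fragments well above background on each array (y axis, of 120), split by fragment type, in the pull-down (left) and the supernatant (right). In the pull-down the PS19 arrays show 106 to 115 fragments and the WT arrays 4, 111 and 62, while the supernatant shows at least 93 on every array.

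The first comparison asked whether the fragments were more or less abundant in the pull-down of PS19 than of WT hippocampus. None of the 119 tested passed, and neither did any of all 2356 RNAs tested (0% called in limma, lowest adjusted p = 0.773). In this fit limma gave all 119 fragments the same SE of 1.04, pooled over RNAs. The p-values in CLIP thus follow the size of the difference and not each fragment's own spread. CLIP levels are log2 signals relative to each array's 75th percentile over RNAs well above background on all 6 arrays. On this scale the median RNA was 0.85 higher in PS19, a shift that ran from -0.10 to 1.17 with other scalings, so differences are also given relative to the median RNA. All 119 fragments had a positive difference before and 65 after the median RNA was taken off, with a median of 0.08 and a range of -0.74 to 1.65. Fragments of other nuclear tRNAs had a median of 0.20, with 423 of 646 above the median RNA. At an unadjusted p under 0.05, 6 fragments were higher in PS19, where 1.91% of all RNAs were, and 0 were lower, where 0.255% were. PS19 and WT arrays did not overlap for 5 fragments that were higher, against 4.33% of all RNAs, and for 0 that were lower, against 0.934%. Without WT 1 the median of the fragments was -0.06, and between PS19 1 and WT 2, which shared a scan, it was -0.03, with 56 of 119 above the median RNA. Less RNA per cell and fewer cells of a type cannot be told apart in such bulk tissue.

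By type, the medians relative to the median RNA were 0.14 for tRF5 (39 of 64 above it), -0.09 for 5′ tiRNAs (13 of 33), -0.00 for tRF3 (8 of 16) and 0.42 for 3′ tiRNAs (5 of 6). Among other nuclear tRNAs the same types had medians of 0.32, 0.01, 0.09 and 0.14. These medians are descriptions with no test. By amino acid the medians were 0.01 for Ala and 0.10 for Pro. Among the anticodons they ran from -0.23 for the 4 ProGGG fragments and -0.22 for the 17 AlaTGC fragments to 0.34 for the 8 AlaGGC fragments.

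The 5 fragments with the smallest p in CLIP were all higher in PS19, and none passed. The fragment 5'tiRNA-35-AlaCGC-1, the 5′ portion of a tRNA-Ala with the anticodon CGC, had CLIP levels of -6.88, -2.53 and -2.89 in PS19 1 to 3, against -7.19, -7.67 and -4.93 in WT 1 to 3. PS19 2 and PS19 3 were high, WT 3 came next and PS19 1 lay with the remaining WT arrays, so the groups overlapped. The difference was 2.50 (SE 1.04, limma adjusted p = 0.773), or 1.65 relative to the median RNA. The fragment 3'tiRNA-41-AlaAGC-8 had the same order, with -7.25, -2.52 and -2.52 in PS19 against -7.22, -7.62 and -4.29 in WT. It differed by 2.28 (SE 1.04, adjusted p = 0.773), and inside the shared scan PS19 1 and WT 2 differed by 0.37. Neither fragment was well above background in CLIP on PS19 1, WT 1 or WT 2, so their values there, and the difference inside the shared scan, are those of background signals. With array quality weights, of which PS19 2 and PS19 3 had 8.26 and 8.12 and no other array more than 1.16, both passed (adjusted p = 0.027 and 0.030 in limma).

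In the other 3 of these fragments, all tRF5, the PS19 arrays lay close together and WT 3 was lowest. For tRF5-18-AlaAGC-3 the CLIP levels were -3.28, -3.83 and -3.74 in PS19, against -5.83, -3.69 and -8.06 in WT. WT 2 lay among the PS19 arrays, while WT 1 and WT 3 were not well above background. The levels of tRF5-18-ProTGG-3 were -4.20, -4.01 and -4.20 in PS19, against -5.99, -4.73 and -8.05 in WT, and those of tRF5-20-AlaGGC-3 were -4.04, -4.47 and -4.46 in PS19, against -6.56, -4.64 and -8.03 in WT. Both had groups that did not overlap, and both were well above background in WT 2 as the only WT array. The 3 differences were 2.24, 2.12 and 2.09 (SE 1.04 each, adjusted p = 0.773 in limma). Inside the scan that PS19 1 shared with WT 2 they were 0.40, 0.53 and 0.60. With normexp background correction the differences of tRF5-18-ProTGG-3 and tRF5-20-AlaGGC-3 were -0.04 and -0.07, where the median RNA was at -0.10. The low signal of WT 1 and WT 3 moved with these differences, and its part in them was not tested.

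The supernatant comparison asked whether the pool left after the pull-down differed. Of 116 fragments tested and of all 3727 RNAs, none passed (0% called, lowest adjusted p = 0.928). Relative to the median RNA, which was 0.10 higher in PS19, the fragments had a median of 0.18, with 77 above it; other nuclear tRNA fragments had 0.16, with 404 of 641 above. The tRF5 had a median of 0.24 (48 of 63 above), against 0.28 for tRF5 of other nuclear tRNAs, and the medians were 0.13 for 5′ tiRNAs, -0.10 for tRF3 and 0.16 for 3′ tiRNAs. At an unadjusted p under 0.05, 0 fragments were higher and 0 lower, against 1.74% and 1.05% of all RNAs. With normexp background correction 51 of the 116 and 1798 of all 3727 RNAs were higher at that p, and the median of the fragments relative to the median RNA was -0.0065. Groups did not overlap for 12 fragments that were higher, against 7.32% of all RNAs, and for 1 that was lower, against 3.01%. Of the 12, 9 were tRF5. Inside the shared scan the median of the fragments was -0.02, and without WT 1 it was 0.03.

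The smallest p in the supernatant belonged to tRF5-20-AlaAGC-10. Its supernatant levels were -1.01, -1.03 and -1.11 in PS19, against -1.84, -1.46 and -2.85 in WT. The PS19 arrays were nearly alike and all above the WT arrays, and the difference was 1.00 (SE 0.42, limma adjusted p = 0.928). The next fragments by p in this direction, tRF5-20-AlaAGC-11, 5'tiRNA-33-ProAGG-2, tRF5-20-AlaAGC-1 and tRF5-17-ProAGG-1, differed by 0.66 to 0.95, also without overlap. In the other direction tRF3a-ProTGG-5 had -1.97, -2.98 and -2.79 in PS19, against -2.02, -2.03 and -1.80 in WT, a difference of -0.63 (SE 0.36, adjusted p = 0.928) with PS19 1 among the WT arrays. In the supernatant tRF3a-ProTGG-5 was not well above background on PS19 2, nor tRF5-20-AlaAGC-1 on WT 3.

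The ratio of CLIP over supernatant, centred on each array's median, asked whether the fragments were relatively more in the pull-down of PS19. None of 119 fragments or of all 3971 RNAs passed (0% called, lowest adjusted p = 0.993). Relative to the median RNA the fragments had a median difference of 0.09, with 70 above it, and other nuclear tRNA fragments had 0.11. At an unadjusted p under 0.05, 1 fragment was higher, against 2.09% of all RNAs, and 1 lower, against 2.04%. Groups did not overlap for 4 that were higher, against 4.18%, and 4 that were lower, against 4.76%. By type the medians were 0.10 for tRF5, -0.02 for 5′ tiRNAs, 0.18 for tRF3 and 0.26 for 3′ tiRNAs, against 0.09, 0.14, 0.18 and 0.19 for the same types of other nuclear tRNAs. Without WT 1, where 116 of the 120 were not well above background in CLIP, the median over all fragments was 0.01, and inside the shared scan it was -0.02.

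**Figure D2:**
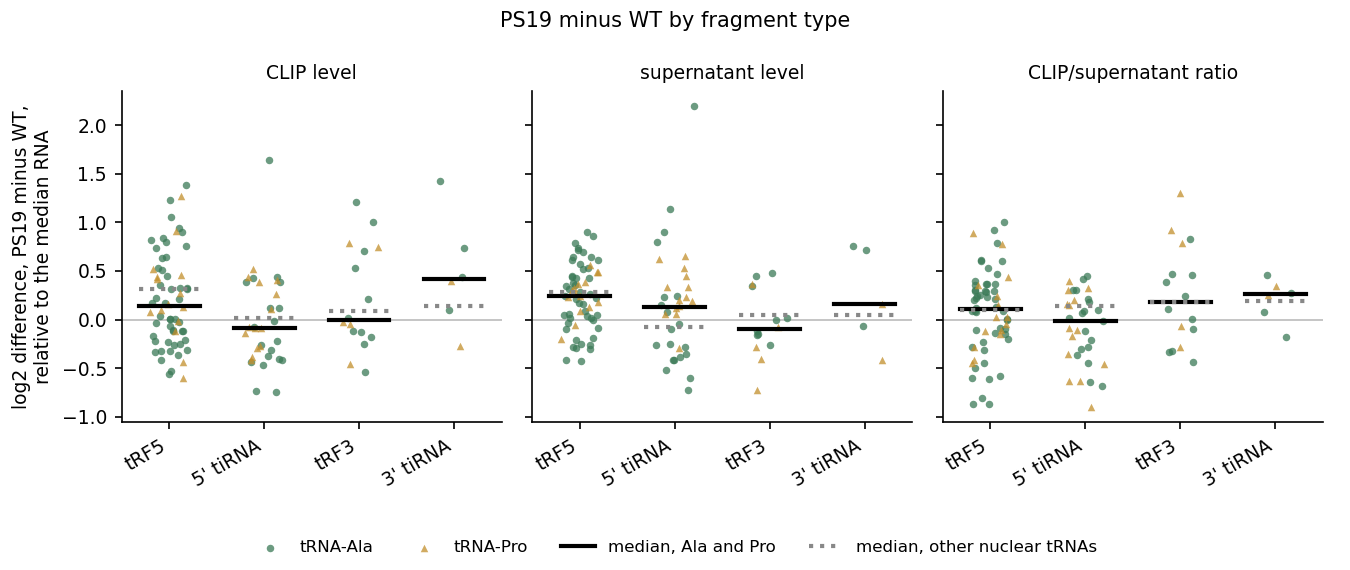
Each point is 1 fragment, placed by type, with its log2 difference (PS19 minus WT, relative to the median RNA) in CLIP, supernatant and their ratio on the y axis; circles are tRNA-Ala and triangles tRNA-Pro. The medians of the fragments (black) lie between -0.10 and 0.42. Those of the same types of other nuclear tRNAs are dotted, and the gaps between them were not tested.

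The 5 fragments with the smallest p for a higher ratio in PS19 were not well above background in CLIP on WT 1 and WT 3, so their ratios there rest on background signals. Among them tRF5-20-AlaGGC-2 had log2 ratios of 0.16, 0.30 and 0.36 in PS19, against -0.82, -0.10 and -0.97 in WT. All PS19 arrays were above all WT arrays, and the difference was 0.91 (SE 0.34, limma adjusted p = 0.993). For tRF5-18-ProTGG-3 the ratios were 0.08, 0.68 and 0.79 in PS19, against -0.09, -0.02 and -0.95 in WT, again without overlap, with a difference of 0.87 (SE 0.39, adjusted p = 0.993). The largest difference was that of tRF3a-ProAGG-1, a piece of the 3′ end of tRNA-Pro, with -0.71, 0.86 and -0.42 in PS19 against -0.45, -1.38 and -2.30 in WT. WT 1 lay among the PS19 arrays, and the difference of 1.28 had an SE of 0.60 (adjusted p = 0.993). The remaining ones were tRF5-18-AlaAGC-3 (0.77) and tRF5-22-AlaAGC-11 (0.98), and tRF5-22-AlaAGC-11 had both channels well above background on PS19 1 and WT 2 only.

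Of the 5 lower ratios in PS19 with the smallest p, 4 belonged to AlaAGC fragments, the largest anticodon group with 44 of the 120. The ratios of tRF5-20-AlaAGC-10 were 0.10, 0.01 and -0.29 in PS19, against 1.13, 0.50 and 0.85 in WT. No array overlapped, the means were -0.06 ± 0.20 in PS19 and 0.83 ± 0.31 in WT (SD, n = 3 each), and the difference was -0.89 (SE 0.32, limma adjusted p = 0.993). Its supernatant level was the higher one in PS19 given above, while its CLIP level relative to the median RNA differed by -0.07. A shorter fragment of another AlaAGC tRNA, tRF5-18-AlaAGC-11, had -0.11, -0.29 and -0.09 in PS19, against 1.45, 0.18 and 0.56 in WT, a difference of -0.89 (SE 0.39, adjusted p = 0.993). WT 1 was not well above background in CLIP for either fragment. The others were tRF5-20-AlaAGC-3 (-0.83), 5'tiRNA-33-ProAGG-2 (-0.92) and tRF5-20-AlaAGC-16 (-0.63), also not well above background in CLIP on WT 1. In CLIP tRF5-20-AlaAGC-3 was not well above background on WT 3 either, nor 5'tiRNA-33-ProAGG-2 on PS19 2. With normexp the 4 AlaAGC differences were between 0.0061 and 0.191, 3 of them above the median RNA at 0.0081 and tRF5-20-AlaAGC-3 below it. Inside the shared scan the 10 differences were between -0.69 and 0.67, and those of tRF5-20-AlaAGC-3 and tRF5-20-AlaAGC-16 were 0.13 and 0.01, above 0.

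**Figure D3:**
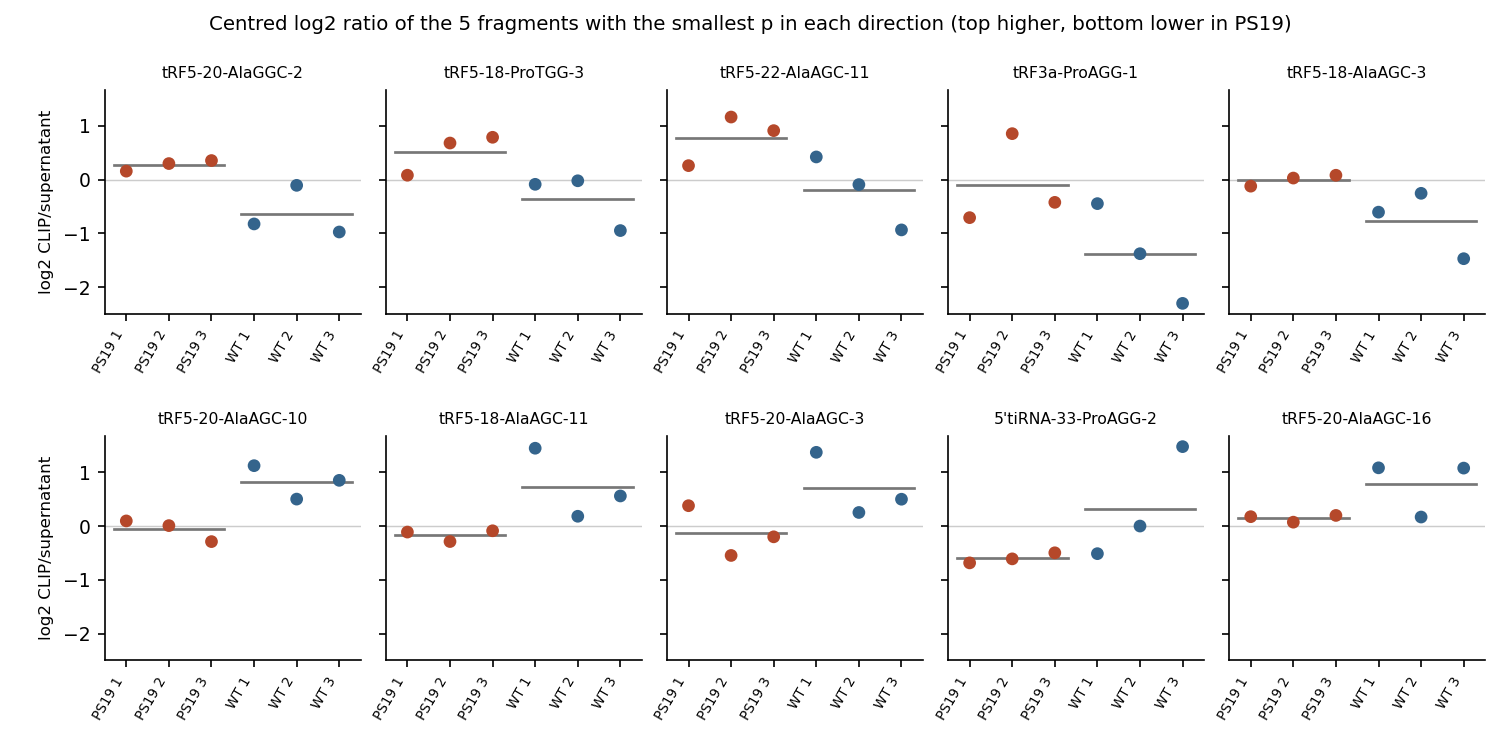
Centred log2 ratio of CLIP over supernatant (y axis) on each array (x axis, PS19 red, WT blue, lines at group means) for the 5 fragments with the smallest p in each direction. In the top row PS19 means lie above WT means and in the bottom row below.

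The named tRF5 include several lengths of 1 tRNA. For 15 tRNAs the list held the tRF5 of 18, 20 and 22 bases, which share their 5′ end. Relative to the median RNA, the ratio differences had the same sign at all 3 lengths for 4 tRNAs that were higher and 2 that were lower in PS19, and mixed signs for 9. Many of these differences were near 0, and differences between lengths were not tested. In AlaAGC-11 they were -0.87, -0.29 and 1.00 at 18, 20 and 22 bases, and in AlaAGC-3 they were 0.79, -0.81 and -0.24. ProGGG-1 was steady at -0.28, -0.42 and -0.44, and AlaTGC-6 at 0.29, 0.21 and 0.37. The 22-base value of AlaAGC-11 rests on a fragment that was not well above background in the supernatant on 4 of the 6 arrays. Fragments of AlaAGC-3 and AlaAGC-11 thus stood among the named ones in both directions. Probes for nested fragments may share target bases, and cross-hybridisation between lengths was not tested.

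**Figure D4:**
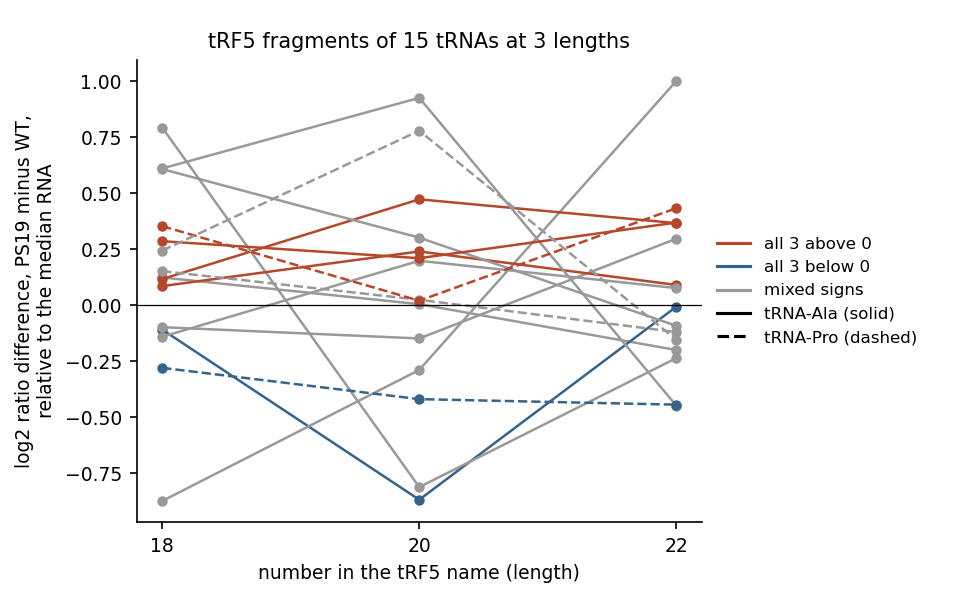
Each line joins the tRF5 fragments of 1 tRNA at 18, 20 and 22 bases (x axis), and the y axis is the log2 ratio difference, PS19 minus WT, relative to the median RNA. Of 15 lines 4 stay above 0, 2 stay below and 9 cross it.

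Within each genotype the fragments had CLIP over supernatant ratios near those of the median RNA. Their median log2 ratio was -0.01 in PS19 and -0.07 in WT. In PS19, 57 had a mean ratio above 0 and 62 below, and in WT 50 above and 69 below. No fragment passed in limma. Over all RNAs 4 passed as higher in CLIP in PS19 (0.101%) and 0 as lower (0%), and in WT 3 passed as higher (0.0755%) and 0 as lower (0%). At an unadjusted p under 0.05, 2 fragments were higher (3.17% of all RNAs) and 1 lower (3.83%) in PS19, and 8 were higher (4.38%) and 4 lower (3.65%) in WT. The tRF5 had array medians of 0.03, 0.02 and -0.04 in PS19, against -0.27, -0.02 and 0.26 in WT. Those of 5′ tiRNAs were -0.12, 0.13 and -0.16 in PS19, against -0.05, -0.03 and -0.20 in WT. Only the 5′ tiRNAs in WT had medians on the same side of 0 on all 3 arrays of a genotype.

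A fragment with a low ratio in both genotypes was 3'tiRNA-41-ProAGG-1, the 3′ portion of a tRNA-Pro after the anticodon cut. Its ratios were -2.47, -0.61 and -1.28 in PS19, against 0.17, -2.29 and -2.94 in WT. All arrays but WT 1 were below 0. In CLIP the fragment was not well above background on PS19 2, WT 1 and WT 3, and in the supernatant not on PS19 2. The means were -1.46 in PS19 (SE 0.60, limma adjusted p = 0.697) and -1.69 in WT (SE 0.60, adjusted p = 0.571). The highest ratio in PS19 by p was that of tRF5-20-AlaTGC-6, with 0.53, 0.66 and 0.94 in PS19 against 0.51, 0.35 and 0.70 in WT, above 0 on all arrays. However, tRF5-20-AlaTGC-6 was not well above background in CLIP on WT 1 and WT 3, nor in the supernatant on PS19 2. Its mean ratio in PS19 was 0.71 (SE 0.21, limma adjusted p = 0.542) and in WT 0.52 ± 0.17 (SD, n = 3). Since Cy5 and Cy3 were not exchanged, ratios of this kind are open to dye bias.

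Some fragments differed more between arrays of 1 genotype than between the arrays of both genotypes that shared a scan. Over 119 fragments, CLIP levels correlated with r = 0.95 between PS19 1 and WT 2 and 0.89 between PS19 2 and PS19 3, the pairs that shared a scan, and with 0.34 between PS19 1 and PS19 2, which are of 1 genotype. Across scans WT 3 correlated with PS19 2 and PS19 3 by 0.73 and 0.70, and with WT 2 by 0.35. These are correlations across fragments of 2 arrays and are given as a description; fragments that overlap in sequence are not independent. Relative to the median RNA of the array, no fragment differed more than 4-fold between PS19 1 and WT 2, and the median absolute log2 difference was 0.22. By contrast 7 fragments were more than 4-fold higher both in the mean of PS19 2 and PS19 3 than in PS19 1 and in WT 3 than in WT 2. They were 5'tiRNA-33-AlaAGC-1, 5'tiRNA-34-AlaAGC-1, 5'tiRNA-35-AlaCGC-1, 5'tiRNA-33-AlaTGC-4, 3'tiRNA-41-AlaAGC-8, tRF3a-AlaAGC-8 and tRF3b-AlaAGC-8, all from tRNA-Ala and chosen after their values were seen. None of the 119 was more than 4-fold lower in both. The same count was not made over all RNAs or other tRNA fragments, and tRNA-Ala gave 84 of the 120 fragments. Of the 7, only 5'tiRNA-33-AlaTGC-4 was well above background in CLIP on WT 2, so the step from WT 2 to WT 3 starts from background signals in the others.

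The 7 include 5′ tiRNAs and 3′ fragments whose supernatant levels differed in pattern. The 5′ tiRNA 5'tiRNA-34-AlaAGC-1 had CLIP levels of -4.84, -1.10 and -1.41 in PS19, against -2.95, -5.22 and -2.88 in WT. Its supernatant levels followed, with -3.81, 0.56 and 1.12 in PS19, against -3.07, -3.16 and 0.40 in WT. PS19 2, PS19 3 and WT 3 were thus high in both channels, and WT 1 was high in CLIP only. Of the 3 fragments from the 3′ end of AlaAGC-8, tRF3b-AlaAGC-8 had CLIP levels of -4.88, -2.42 and -2.68 in PS19, against -6.84, -6.11 and -3.21 in WT, while its supernatant levels were -2.80, -2.70 and -2.40 in PS19, against -3.42, -3.44 and -2.75 in WT. Its log2 ratios were therefore -0.47, 2.72 and 2.05 in PS19, against -0.04, -1.01 and 2.89 in WT. The ratios of tRF3a-AlaAGC-8 were -1.03, 3.14 and 3.05 in PS19, against 1.33, -0.21 and 2.93 in WT, and those of 3'tiRNA-41-AlaAGC-8 were -1.79, 3.55 and 2.77 in PS19, against 0.71, -0.11 and 2.61 in WT. The 3 overlapping fragments had their high ratios on PS19 2, PS19 3 and WT 3. These ratios rest in part on background signals. In the supernatant tRF3a-AlaAGC-8 was well above background on PS19 3 and WT 3 only, and 3'tiRNA-41-AlaAGC-8 on PS19 1 and WT 3 only, and in CLIP both were not on PS19 1, WT 1 and WT 2. For tRF3b-AlaAGC-8 the supernatant was not well above background on PS19 2 and WT 1, nor CLIP on WT 1 and WT 2. Outside WT 1 the ratios of 5'tiRNA-34-AlaAGC-1 ran from -0.41 to 0.78 and those of 5'tiRNA-33-AlaAGC-1 from -0.66 to 0.72, and on WT 1 they were 3.51 and 2.67. The part of the scan in these levels was not tested beyond the values given.

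**Figure D5:**
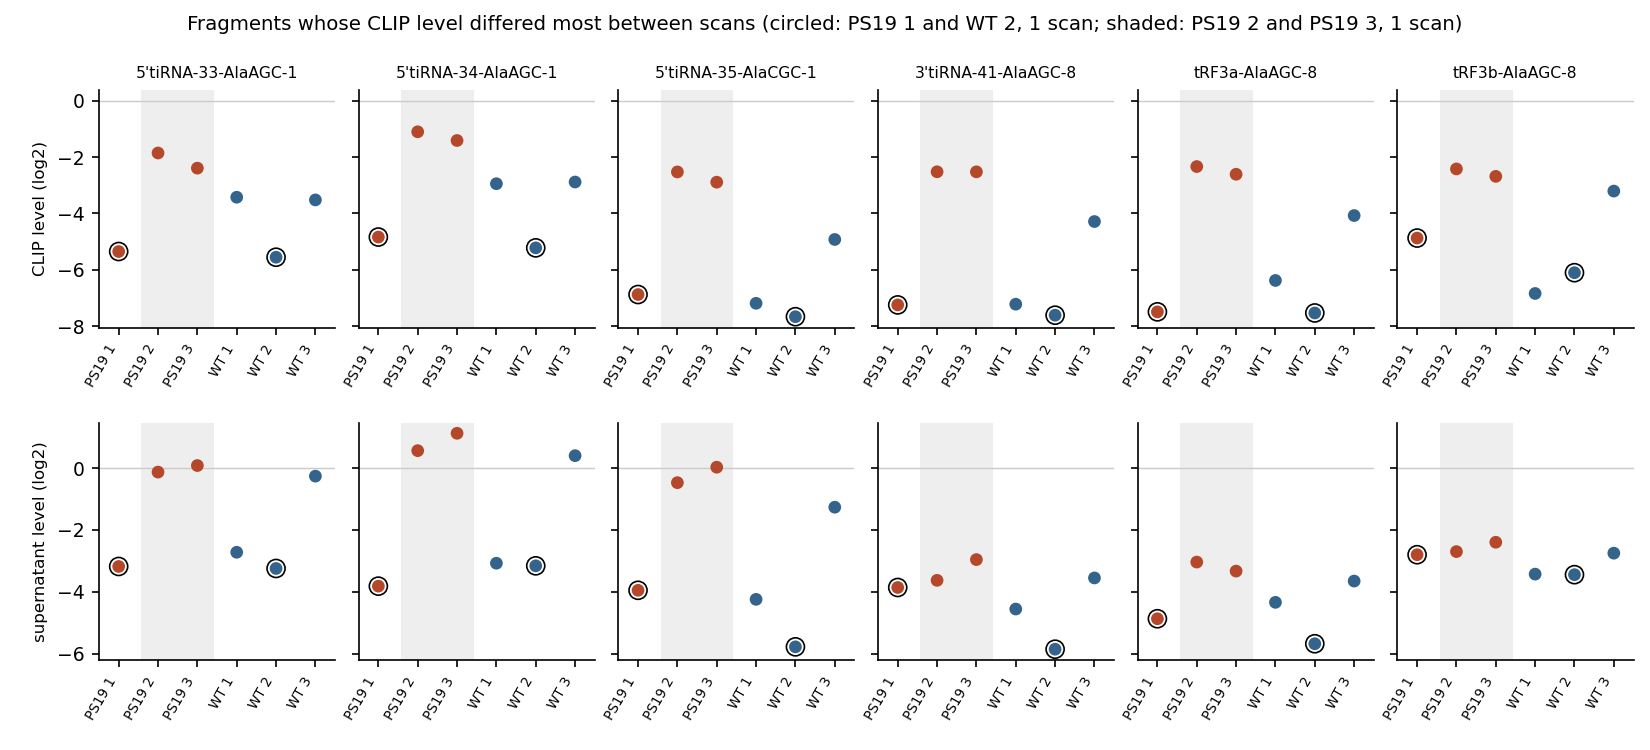
CLIP level (top) and supernatant level (bottom), both log2, on each array for 6 of the 7 fragments of tRNA-Ala that differed most between scans (PS19 red, WT blue). PS19 1 and WT 2 (circled, 1 scan) lie together toward the low end in CLIP, and PS19 2, PS19 3 (shaded, 1 scan) and WT 3 lie higher; the 3 fragments of AlaAGC-8 show the gap in CLIP more than in the supernatant.

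The longest 5′ tiRNA of AlaAGC-1, 5'tiRNA-35-AlaAGC-1, was not tested in CLIP, because its spots on PS19 1, WT 1 and WT 2 were marked as outliers. Its CLIP levels on the other arrays were 4.75 and 4.44 in PS19 2 and PS19 3, against 4.49 in WT 3. In the supernatant it had 6.58 and 6.54 in PS19 2 and PS19 3, against 6.66 and 7.46 in WT 1 and WT 3, a difference of -0.50 (SE 0.46, limma adjusted p = 0.928, 2 arrays per genotype). It was the 1 fragment whose supernatant level was lower in PS19 without overlap.

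The RNAs from which such fragments come, and their mitochondrial counterparts, were measured on the same arrays. Of 8 full-length nuclear tRNA-Ala and tRNA-Pro, 1 lay above the median RNA in the CLIP difference, with a median of -0.58. In CLIP 8, 5 and 7 of the 8 were well above background on PS19 1 to 3, against 4, 8 and 2 on WT 1 to 3. On WT 1 their median was 2.31 above the median RNA of that array, against -0.66 to 0.15 on the PS19 arrays, 0.04 on WT 2 and -1.71 on WT 3. The values of WT 1 and WT 3 thus rest in part on background signals. Inside the shared scan 6 of 8 were higher in PS19, with a median of 0.09. In the supernatant their median difference was -0.31 and in the ratio 0.04. The 5 fragments of mitochondrial tRNA-Ala and tRNA-Pro had medians of -0.02 in CLIP, -0.12 in the supernatant and 0.21 in the ratio. None of these 13 RNAs passed in any comparison, and whether full-length tRNAs and fragments differ in their change was not tested.

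The authors' deposited table gives a log2 fold change, PS19 minus WT, and a p-value for each name from CLIP values scaled on spike-ins. Of the 120 fragments, 71 lay above 0 and 49 below in the authors' deposited table, from -2.21 to 1.70, with a median of 0.11 against 0.04 for all names. The lowest was 5'tiRNA-35-AlaAGC-1, whose outlier spots are given above. The highest was 5'tiRNA-35-AlaCGC-1, not well above background in CLIP on PS19 1, WT 1 and WT 2. By type, the medians in the authors' deposited table were 0.19 for tRF5, -0.04 for 5′ tiRNAs, 0.05 for tRF3 and 0.47 for 3′ tiRNAs. Of the fragments, 4 had an unadjusted p under 0.05 in the authors' deposited table, as had 57 of all 2380 names. Among the 4 in the authors' deposited table were tRF5-20-AlaGGC-3 (log2 fold change 1.29, p = 0.0213) and tRF5-18-AlaAGC-3 (1.44, p = 0.0215), and the adjusted p was 0.999 for every name.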

How the data were processed

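Per the file headers, the deposited intensity values are Agilent Feature Extraction 11.0.1.1 processed signals (background-subtracted and dye-normalised), 1 file per array. Recomputed from the files, the log2 values of the deposited value table are red signals relative to the array's mean over 7 spike-in probes, and the authors' deposited table adds log2 fold changes with p-values. Names were linked to probes by matching these to values recomputed from the value table: all 2380 names matched 1 of 557616 candidate sets, and each fragment 1 probe. Members and lists were chosen with earlier results of these data known.

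Spots marked as outliers were left out. Levels were scaled on the 75th percentile of 550 (CLIP) or 1703 (supernatant) RNAs, and ratios centred on the median of the tested RNAs. RNAs well above background on at least 3 arrays, with at least 2 values per genotype, were tested with limma 3.58.1 in R 4.3.3, with Benjamini-Hochberg adjustment over all of them, at 0.05. Named fragments were the 5 with the smallest p per direction and examples per type. Fits were tried on simulated independent values with a common spread and no scan effect, which cannot show how well they suit these arrays. Replicate numbers were not treated as pairs, since the labels do not say whether samples were matched. Deviations of same-numbered arrays correlated by -0.08, -0.52 and 0.32 in CLIP, against 0.64 for PS19 1 and WT 2. With few arrays and shared scans these values cannot show whether the samples were paired. Alternatives covered scaling, background correction, filters, variance models, blocks, scans and left-out arrays. The number of arrays limits precision. No tRNA or probe sequences were used here.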

Additional observations from a re-analysis of the deposited data

How the results depend on the processing

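No fragment passed in any comparison between genotypes under any alternative but array quality weights, under which 4 fragments passed in CLIP (36 RNAs in all). Of those 4, tRF3b-AlaAGC-8, 3'tiRNA-41-AlaAGC-8 and 5'tiRNA-35-AlaCGC-1 were higher on the scan of PS19 2 and PS19 3, and the other was tRF5-20-AlaGGC-2. All RNAs called in CLIP were 0 as reported, 5 with normexp, 18 with the scan as a random block (0 fragments) and 0 to 2 when arrays were left out in turn, 2 without WT 3. With the replicate number as a block the fragments' medians were 0.077 in CLIP, 0.176 in the supernatant and 0.0855 in the ratio, with 0 calls. With the scan as a random block they were -0.028, 0.049 and 0.043, and with normexp -0.0036, -0.0065 and 0.060. The CLIP median was 0.46 with no filter on dim RNAs, where the median RNA was at 0.47 instead of 0.85. The fragments' own CLIP median was 0.93 with and without the filter. The ratio median was 0.28 with no filter, 0.0022 over RNAs well above background on all 6 arrays, -0.018 inside the shared scan and 0.0065 (without WT 1) to 0.10 with arrays left out. With no filter the median RNA was at -0.21 in the ratio instead of -0.02. The fragments' own ratio median was 0.07 with and without the filter. Within WT the median ratio was -0.29 without centring and -0.38 centred over all RNAs, where the median of all RNAs was -0.24 and -0.33. All RNAs called within PS19 were 0 with normexp, 0 with the stricter filter, 0 with a variance trend and 2 to 4 with arrays left out, 2 without PS19 2 or without WT 3. Within WT they were 3, all higher in CLIP, as reported, 3 with normexp, all lower, 0 with the stricter filter, 0 with the trend and 0 to 3 with arrays left out, 0 without WT 2 or without WT 3.

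The following differences changed sign. In CLIP with normexp, tRF5-18-ProTGG-3 had -0.037 and tRF5-20-AlaGGC-3 -0.072, both above the median RNA at -0.10. In the supernatant, tRF3a-ProTGG-5, 5'tiRNA-35-AlaTGC-5, tRF5-20-AlaCGC-4 and 5'tiRNA-34-AlaTGC-7 had 0.14, 0.137, 0.442 and 0.446 without scaling and 0.219, 0.24, 0.346 and 0.249 with normexp, and 5'tiRNA-35-AlaAGC-1 had 0.686 without scaling. The median RNA was then at 0.87 without scaling and 0.36 with normexp, so all of these stayed below it. For 5'tiRNA-34-AlaTGC-7 the value was 0.00080 with array weights and -0.51 to 0.033 with arrays left out, the last without WT 3. In the ratio with normexp, tRF5-22-AlaAGC-11 had -0.014, tRF5-20-AlaAGC-10 0.082, tRF5-18-AlaAGC-11 0.096, tRF5-20-AlaAGC-3 0.0061 and tRF5-20-AlaAGC-16 0.191, with the median RNA at 0.0081, and the cause was not tested. The scaling on the median of the tested RNAs and the centring over all RNAs were chosen after seeing the data. Signal over background was the limit in CLIP, where 2 of 120 fragments were well above it on all arrays and the strict filter left 1 to test.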
